A study of Danio rerio with 4 samples.

Results

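The molecular chaperones examined here were the genes of the heat shock protein (Hsp), DnaJ and CCT families in the gonads of adult zebrafish. Members were chosen by symbol alone, as every gene whose symbol begins with hsp and a family letter or digit, with dnaja, dnajb or dnajc, or with cct and a subunit number, together with tcp1, which is the first CCT subunit. The genes hspg2 and hspbap were left out because they only share the letters. This gave 97 of the 32520 genes in the count table. They were 4 Hsp90 genes, 19 Hsp70 and Hsp110 genes, 10 small Hsp genes, 2 genes of the mitochondrial chaperonin, 9 CCT genes, 52 DnaJ genes and hspbp1, an exchange factor of Hsp70.

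RNA-Seq read counts were available for 2 ovaries and 2 testes. All 4 fish were adults of the AB laboratory strain, were untreated, and served as null controls in a study of an aromatase inhibitor that was not given to them. Each library was made from the gonad of 1 fish, so the 2 libraries of a sex are separate animals, and whole organs were used without sorting of cells. Levels below are counts per 1000000 counts of the library (CPM) after TMM scaling, listed in the order ovary 1, ovary 2, testis 1, testis 2. No gene lengths were used, so levels are compared between libraries and not between genes. A positive log2 fold change means higher in testis, and a gene was called when edgeR's quasi-likelihood test gave a Benjamini-Hochberg adjusted p under 0.05 over all tested genes.

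Library totals ran from 11554811 to 26137839 counts. The labels of the tissues were met by their markers: all 7 oocyte genes were called higher in ovary, and all 6 sperm lineage genes and all 5 testis somatic genes were called higher in testis. Summed oocyte marker levels were 6212 and 4121 CPM in the ovaries against 36.9 and 37.4 CPM in the testes, and summed sperm lineage levels were 2.70 and 2.82 CPM against 1089 and 999.9 CPM. Markers of other tissues also moved. Skin markers differed within each sex, with summed levels of 1258 and 107 CPM in the ovaries against 762 and 30.5 CPM in the testes. Ovary 1 stood apart in epcam and testis 1 in the keratin gene krt5, which was at 495 CPM there and at 0.447 CPM in testis 2. Summed blood, immune and smooth muscle markers were higher in both testes than in both ovaries. Where these values touch a chaperone, they are given beside it. In whole organs, fewer cells of a type and less RNA per cell cannot be told apart.

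Chaperones bind proteins that are not yet folded or have lost their fold. Hsp70 proteins cycle on and off such clients by hydrolysing ATP, DnaJ proteins (also called Hsp40) bring clients to Hsp70 and start its ATP hydrolysis, and exchange factors reset it. Hsp90 acts later, on kinases, receptors and other clients that are nearly folded, the ring-shaped CCT complex encloses actin and tubulin, and small Hsps hold unfolded proteins without using ATP. Several of these families have separate members for the cytosol, the endoplasmic reticulum (ER) and the mitochondrion, and in mammals some have members that are used mainly in male germ cells.

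Of the 97 members, 87 had enough counts to be tested. In edgeR's test 33 of them (37.9%) were called higher in ovary, where the background over all 21815 tested genes was 28.5%, and 19 (21.8%) were called higher in testis, against 36.7%. In both directions together 52 members (59.8%) were called, against 65.2% of all tested genes, and 35 were not. Ovary-high genes were also more frequent among all well-expressed genes. At or above a mean log2 CPM of 5, a limit chosen after values were seen, 26 of 45 members (57.8%) were called higher in ovary, against 56.7% of 7337 genes, and 6 (13.3%) higher in testis, against 17.9%. At matched levels the members' shares thus lay near those of other genes. The differences that follow are between families, compartments and copies, and they are measured gene by gene.

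The 10 members without a test had few counts in every library. They were one of the 2 genes named dnajb9 (ENSDARG00000052072), dnajc22, dnajc5b, hspa12a.1, hspa12a.2 and 5 small Hsp genes, hspb3, hspb7, hspb9, hspb9l and hspb15. Of the 87 tested members, 76 passed the filter on low counts in both sexes, 10 only through the testis libraries and 1 only through the ovary libraries. The 10 were dnaja, dnajb4, dnajb5, dnajb13, dnajb14, dnajc12, hspa4l, hspb2, hspb6 and hspb8. A gene kept only because it is high in testis was bound to differ, so the counts of testis calls in the families that hold them carry that limit.

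The scaling of the libraries bears on every weak difference. Over all tested genes the log2 fold change had a median of 0.45 with TMM, and with scaling by library total alone it was 1.19. The members' median was −0.44 and 0.30 under these 2 scalings, which is 0.89 and 0.90 below the median of all genes. That gap depended on the filter on low counts: it was 0.21 with at least 10 counts in every library and 1.58 with no filter. In share of the library's counts, the 97 members together took 1.27% and 1.07% in the ovaries and 1.15% and 1.098% in the testes, and the sexes overlapped. Under library total scaling 21 of the 33 ovary calls were kept and all 19 testis calls were kept. Over all tested genes that scaling moved ovary calls from 6217 to 3833 and testis calls from 8002 to 10411.

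**Figure D1:**
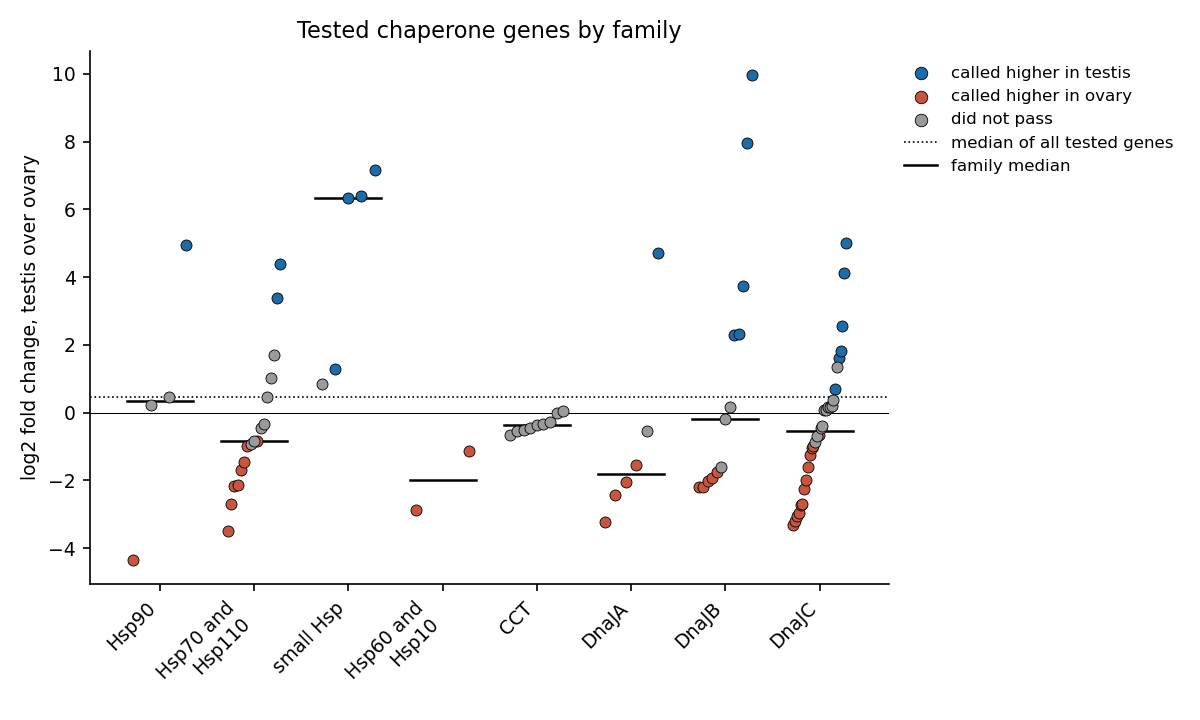
Log2 fold change (testis over ovary, fitted with TMM scaling) of each tested chaperone gene, by family; hspbp1 is not drawn. Each point is 1 gene, coloured by its call, the solid bars are family medians and the dotted line is the median of all tested genes (0.45). The 9 CCT genes lie between −0.65 and 0.04, while Hsp90 genes run from −4.34 to 4.96.

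Most members of the ER, the compartment where secreted and membrane proteins fold, were higher in ovary. Of 13 members assigned to the ER lumen or its membrane, 12 were tested, and 9 of these were called higher in ovary, 1 higher in testis and 2 not called. Their share of ovary calls was 75.0% and their median log2 fold change −2.06. All tested genes had 28.5% and 0.45, and those with a mean log2 CPM of 5 or more had 56.7% and −0.99. Testis calls made up 8.33% of the 12, against 36.7% and 17.9% of these backgrounds. Some of the 12 lay below a mean log2 CPM of 5, so neither background is matched to them. The compartment was assigned from background knowledge after values had been seen, and the set may be incomplete, so the count is a description. The shares depend on which genes were assigned, and dnajc14, dnajc16 and dnajc18 were among those that were not. Of these, dnajc18 was not called (0.17 ± 0.23 SE) and dnajc14 was called higher in ovary. Both dnajc16 genes were called, in opposite directions. Together the ER members took 0.346% and 0.265% of the library's counts in the ovaries and 0.0579% and 0.0626% in the testes.

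The gene hspa5 encodes BiP, the Hsp70 of the ER. It stood at 2186 and 1469 CPM in the ovaries against 148 and 177 CPM in the testes. Both ovaries were far above both testes, 11.2-fold by the means (log2 fold change −3.49 ± 0.46 SE, adjusted p = 0.00135). The gene hsp90b1 encodes the Hsp90 of the ER, known as Grp94. Its levels were 1714 and 965 CPM in the ovaries against 63.9 and 68.5 CPM in the testes, which is 20.2-fold higher in ovary (−4.34 ± 0.46 SE, adjusted p = 0.000633). The ovaries differed from each other by more than the testes did for both genes, but no ovary came near a testis.

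The DnaJ partners of BiP went the same way in part. For dnajb11, a lumenal partner that binds unfolded clients, the levels were 110 and 78.8 CPM against 21.5 and 20.2 CPM (−2.18 ± 0.26 SE). For dnajc3a, which in mammals also restrains the stress kinase PERK, they were 104 and 64.9 CPM against 8.46 and 11.9 CPM (−3.05 ± 0.34 SE). Its copy dnajc3b stood at 19.3, 24.0, 20.9 and 24.7 CPM, overlapped between the sexes and was not called (0.08 ± 0.29 SE). The membrane-bound dnajc1, which in mammals sits near the ribosome, was called higher in ovary as well (−2.72 ± 0.23 SE), as were both genes named dnajb12, which face the cytosol from the ER membrane (−2.18 ± 0.22 SE for ENSDARG00000039363 and −1.93 ± 0.37 SE for ENSDARG00000087473).

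Weaker ovary calls in the ER were those of dnajc10, a DnaJ protein that reduces disulfide bonds, and hspa13, a shortened Hsp70. The gene dnajc10 stood at 210, 157, 74.6 and 103 CPM (−1.04 ± 0.27 SE) and hspa13 at 43.3, 26.5, 14.0 and 11.2 CPM (−1.47 ± 0.34 SE). Neither kept its call without ovary 1 (−0.81 and −1.06) or with library total scaling (−0.29 and −0.70), and dnajc10 also lost it without testis 1 (−0.84). With library total scaling 7 of the 9 ovary calls of the ER were kept. The tested dnajb9 (ENSDARG00000016886), a partner of BiP that is induced by ER stress in mammals, was at 3.71, 1.28, 1.31 and 0.319 CPM and was not called (−1.62 ± 0.90 SE, with −2.97 without testis 1 and −0.62 without ovary 1).

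Among the 12 tested members assigned to the ER, the exception was dnajb14, a membrane protein of the same group as dnajb12. It was at 0.424 and 0.336 CPM in the ovaries against 6.23 and 4.15 CPM in the testes, a testis call in the opposite direction to both dnajb12 genes (3.74 ± 0.69 SE, adjusted p = 0.00476). Its ovary libraries held only 8 and 5 counts.

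Other folding genes of the ER outside the Hsp and DnaJ families were examined through a list of lectin chaperones, disulfide isomerases and helper proteins. All 14 that were found were tested and all were called: 13 were higher in ovary and 1 was higher in testis. The share of ovary calls was 92.9%, against 28.5% of all tested genes and 56.7% of those with a mean log2 CPM of 5 or more. The largest ovary differences were those of p4hb and pdia4, which form and rearrange disulfide bonds, and calr3a, a calreticulin. The isomerase p4hb stood at 2795 and 1523 CPM in the ovaries against 123 and 91.8 CPM in the testes (−4.33 ± 0.55 SE), and the log2 fold changes of pdia4 and calr3a were −4.14 ± 0.34 SE and −3.67 ± 0.25 SE. The exchange factors of BiP, hyou1 (−4.02 ± 0.33 SE) and sil1 (−1.99 ± 0.27 SE), were also called higher in ovary. The 1 testis-high gene was clgn, which encodes calmegin, a lectin chaperone that mouse sperm need to fertilise. It rose from 755 and 447 counts in the ovaries to 5011 and 5827 counts, or 329 and 372 CPM, in the testes (3.32 ± 0.27 SE, adjusted p = 0.000311).

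Oocyte markers moved with these genes, as their sums above show. Their part in the ER result was not tested.

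**Figure D2:**
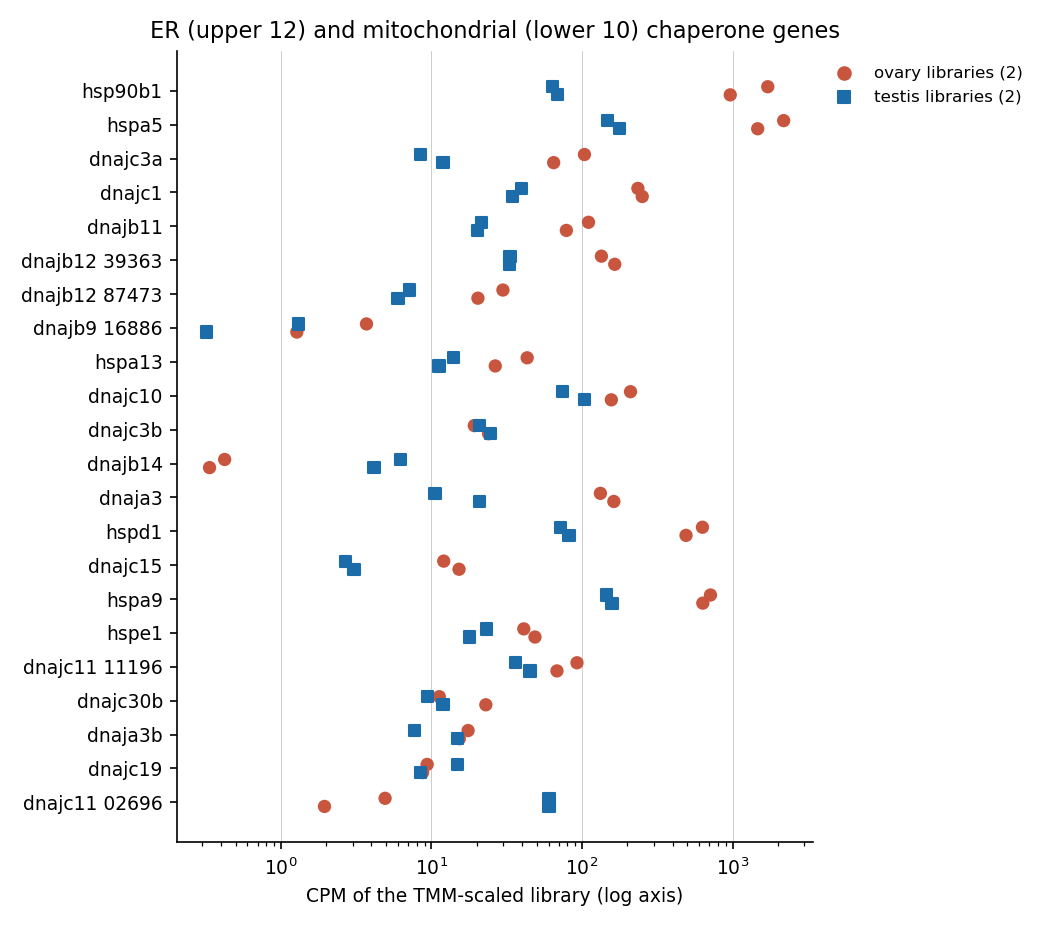
CPM of the 12 tested ER members (upper rows) and the 10 mitochondrial members (lower rows) in each library, on a log axis; genes that share a symbol carry the final digits of their gene ID. Circles are the 2 ovary libraries and squares the 2 testis libraries. In 9 ER genes and 6 mitochondrial genes called higher in ovary both circles lie to the right of both squares, and dnajb14 and 1 dnajc11 gene show the opposite order.

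Mitochondria fold imported proteins with their own Hsp70 and with the Hsp60 and Hsp10 chaperonin. Again after values had been seen, 10 members were assigned there, and the set may be incomplete. Of these, 6 were called higher in ovary, 1 higher in testis and 3 not called, and their median was −1.05 on the log2 scale. The share of ovary calls was 60.0%, against 28.5% of all tested genes and 56.7% of those with a mean log2 CPM of 5 or more. Medians of these backgrounds were 0.45 and −0.99. Testis calls made up 10% of the members, against 36.7% and 17.9% of the backgrounds. Neither is matched in level, since dnaja3b, dnajc15, dnajc19, dnajc30b and the dnajc11 gene ENSDARG00000102696 lay below that limit. Of these, dnajc15 was called higher in ovary, the dnajc11 gene higher in testis and the rest not called. All members above the limit were called higher in ovary. The gene hspd1, which encodes Hsp60, stood at 631 and 491 CPM in the ovaries against 72.3 and 81.9 CPM in the testes (−2.86 ± 0.29 SE, adjusted p = 0.000551). Its co-chaperonin hspe1, which closes the Hsp60 cavity, was at 41.1, 48.7, 23.3 and 17.9 CPM (−1.12 ± 0.27 SE, adjusted p = 0.0112). Both genes were higher in both ovaries, 7.28-fold for hspd1 and 2.18-fold for hspe1. The genes lie next to each other in the RefSeq annotation of GRCz12tu. The call of hspe1 was lost with library total scaling (−0.38) and with a minimum of 10 counts in every library (−0.70). It was also lost with a minimum fold change of 2 and at an adjusted p under 0.01. That of hspd1 was lost in no alternative run.

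The mitochondrial Hsp70, hspa9, pulls proteins through the inner membrane. Its levels were 713 and 635 CPM in the ovaries against 146 and 158 CPM in the testes, 4.43-fold higher in ovary (−2.15 ± 0.28 SE, adjusted p = 0.00136). Its DnaJ partner dnaja3 stood at 133, 163, 10.6 and 20.9 CPM, 9.39-fold higher in ovary (−3.23 ± 0.38 SE). That value depended on the testes, which differed between themselves, and was −3.82 without testis 2 and −2.83 without testis 1. The copy dnaja3b was at 17.5, 15.3, 7.74 and 14.8 CPM and was not called (−0.54 ± 0.42 SE). Of the DnaJ proteins of the import motor, dnajc15 was called higher in ovary (−2.24 ± 0.45 SE) and dnajc19 was not called (0.37 ± 0.44 SE).

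A pair of genes carries the symbol dnajc11, a protein of the mitochondrial membranes that helps to shape the cristae. They were called in opposite directions. The gene ENSDARG00000011196 stood at 92.6, 68.2, 36.3 and 45.1 CPM (−0.98 ± 0.26 SE), and ENSDARG00000102696 at 4.92, 1.95, 60.3 and 60.3 CPM (4.12 ± 0.48 SE, adjusted p = 0.000904). The second took 5.05% and 2.78% of the counts of both genes in the ovaries and 62.4% and 57.2% in the testes (95% Wilson intervals 4.14 to 6.14, 1.94 to 3.96, 59.9 to 64.9 and 54.8 to 59.6). The ovary call of the first was lost without ovary 1 (−0.74), without testis 1 (−0.84) and with library total scaling (−0.23). The log2 fold change of the second was 3.53 without ovary 2 and 4.95 without ovary 1, and it was called in both.

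The list of mitochondrial proteases and the disaggregase clpb is a weaker comparison, since 13 of its 18 gene IDs carry the symbol htra2. Of 13 tested IDs, 3 (23.1%) were called higher in ovary, against 28.5% of all tested genes. Another 5 (38.5%) were called higher in testis, against 36.7%, and 5 were not called. The 5 called higher in testis passed the filter on low counts only through the testes. The ovary calls were lonp1 (−1.33 ± 0.24 SE), clpp (−1.14 ± 0.23 SE) and 1 of the htra2 genes (−1.94 ± 0.34 SE), and all 5 testis calls were htra2 genes with at most 2 counts in an ovary library, of which 2 remained called without ovary 1 and 3 without ovary 2. The mitochondrial Hsp90, trap1, was called higher in ovary (−2.29 ± 0.25 SE).

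In the cytosol the genes with most of the Hsp90 and Hsp70 counts had smaller fold changes than their testis-high relatives. The Hsp90 beta gene, hsp90ab1, stood at 2514 and 1422 CPM in the ovaries against 2784 and 2619 CPM in the testes. Both testes were above both ovaries, but ovary 1 was nearer to the testes than to ovary 2, and the gene was not called (0.46 ± 0.61 SE, adjusted p = 0.532). The Hsp90 alpha gene hsp90aa1 stood at 8.84 and 12.3 CPM in the ovaries against 341 and 317 CPM in the testes. This 31.1-fold difference was the largest of the Hsp90 family (4.96 ± 0.29 SE, adjusted p = 0.000149), and it was called under every alternative run. The second alpha gene, hsp90aa1.1, which in zebrafish serves myosin folding in muscle, was at 10.4, 6.99, 7.87 and 12.3 CPM, overlapped between the sexes and was not called (0.21 ± 0.46 SE).

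The share of hsp90aa1 among the counts of the 3 cytosolic Hsp90 genes does not depend on the scaling of the libraries. It was 0.349% (95% Wilson interval 0.300 to 0.406) and 0.853% (0.739 to 0.986) in the ovaries. In the testes it was 10.9% (10.6 to 11.2) and 10.8% (10.5 to 11.0). The intervals cover counting error only, and the gap between the sexes was far wider than that between the fish of a sex.

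The same was seen in the constitutive Hsp70, Hsc70. A pair of genes carries its symbol, hspa8. The gene ENSDARG00000068992 stood at 3568 and 2582 CPM in the ovaries against 1691 and 1577 CPM in the testes, with both ovaries above both testes, and was not called by edgeR (−0.91 ± 0.59 SE, adjusted p = 0.21). DESeq2's Wald test called it (−1.05, adjusted p = 0.0027), as did edgeR with no filter on low counts (−0.97, adjusted p = 0.0461). The gene ENSDARG00000037403 stood at 6.88 and 24.5 CPM in the ovaries against 178 and 149 CPM in the testes, 10.4-fold higher in testis (3.38 ± 0.59 SE, adjusted p = 0.00384). The ovaries were far apart, and its log2 fold change was 2.75 without ovary 1 and 4.49 without ovary 2. It took 0.193% and 0.939% of the hspa8 counts in the ovaries and 9.52% and 8.61% in the testes.

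Hsp110 proteins are enlarged relatives of Hsp70 that reset it. Both genes named hspa4 were called higher in ovary, with levels of 260, 208, 113 and 149 CPM for ENSDARG00000004754 (−0.84 ± 0.26 SE) and 162, 107, 73.9 and 63.7 CPM for ENSDARG00000018989 (−0.97 ± 0.27 SE). Both calls were lost without ovary 1 (−0.67 and −0.62) and with library total scaling (−0.09 and −0.20). The first was also lost without testis 1 (−0.66) and the second without testis 2 (−0.88). Their relative hspa4l, which in mice is abundant in male germ cells, was at 1.16 and 0.0672 CPM in the ovaries against 11.4 and 15.9 CPM in the testes. Its ovary counts were 22 and 1, so the size of the difference rested on which ovary was used: the log2 fold change of 4.40 ± 0.98 SE (adjusted p = 0.00893) was 3.45 without ovary 2 and 7.50 without ovary 1. Among hspa4 and hspa4l counts, hspa4l took 0.275% and 0.0213% in the ovaries and 5.77% and 6.96% in the testes. The third relative, hsph1, was at 7.36, 5.98, 8.73 and 18.5 CPM and was not called (1.03 ± 0.50 SE).

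**Figure D3:**
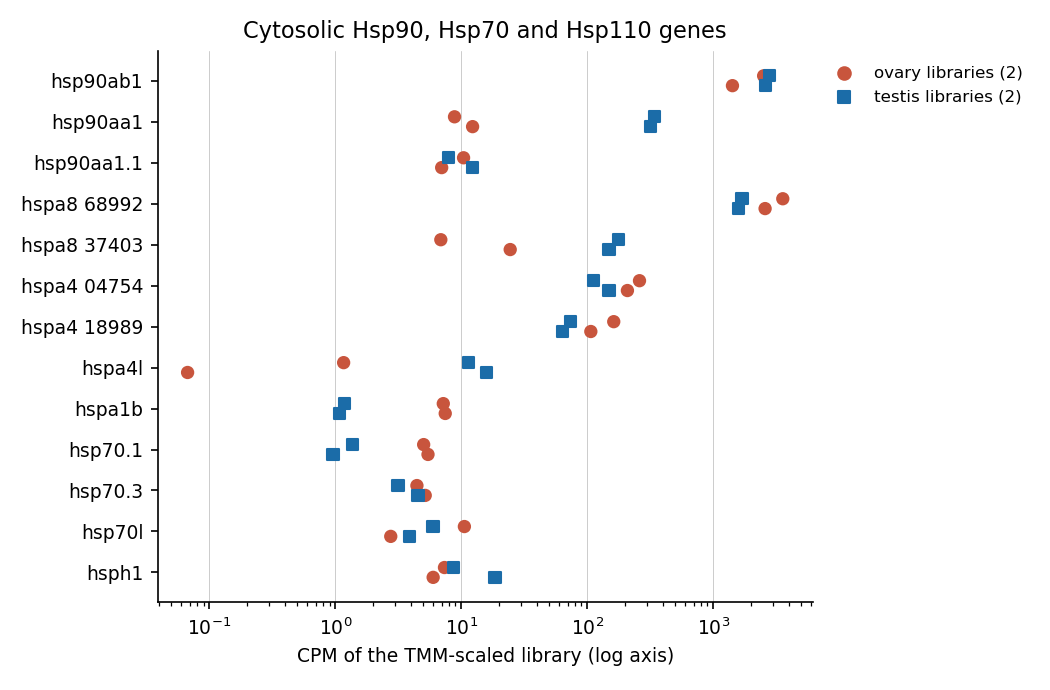
CPM in each library of the cytosolic Hsp90, Hsp70 and Hsp110 genes described in the text, on a log axis; genes that share a symbol carry the final digits of their gene ID. Circles are the 2 ovary libraries and squares the 2 testis libraries. The testis levels of hsp90aa1 (341 and 317 CPM) and of the hspa8 gene that was called (178 and 149 CPM) lie far to the right of the ovary levels, while hsp90ab1 and the other hspa8 gene show narrow gaps.

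Hsp70 genes that respond to heat in fish had few counts in both sexes. The gene hspa1b had 136 and 111 counts in the ovaries and 18 and 17 in the testes and was called higher in ovary, 6.47-fold (−2.68 ± 0.57 SE, adjusted p = 0.00752). The gene hsp70.1 was at 5.03, 5.44, 1.38 and 0.958 CPM, also an ovary call (−2.16 ± 0.60 SE, adjusted p = 0.0204). That call was lost when any 1 of the 4 libraries was left out, with log2 fold changes from −2.45 to −1.93, and with library total scaling (−1.41). The genes hsp70.3 (4.45, 5.18, 3.15 and 4.53 CPM) and hsp70l (10.6, 2.76, 5.97 and 3.90 CPM) overlapped between the sexes and were not called. Inducible Hsp70 copies are close in sequence, and how reads were divided among them is uncertain.

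Genes of the acute stress response gave no common direction with them. The transcription factor genes egr1 (2.29 ± 0.74 SE, and not called without ovary 1, testis 1 or testis 2) and ddit3 (4.07 ± 0.40 SE) were called higher in testis, and atf3 was not called (−0.23 ± 0.43 SE). Their sum over the 3 genes was 21.9 and 14.7 CPM in ovary against 50.98 and 42.2 CPM in the testes. Their part in the Hsp70 levels was not tested.

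Other Hsp70 genes behaved one by one. The gene hspa14, whose product works on the ribosome with dnajc2 in mammals, was at 138, 113, 34.9 and 42.3 CPM (−1.70 ± 0.23 SE). Its partner dnajc2 was called in the same direction, at 41.7, 28.9, 8.86 and 14.3 CPM (−1.61 ± 0.36 SE), though not without ovary 1 (−1.32) or with library total scaling (−0.85). The distant relatives hspa12a (−0.84 ± 0.34 SE) and hspa12b (1.71 ± 0.82 SE) were not called. Testis 1 stood apart in hspa12b, at 26.5 CPM against 2.96, 6.79 and 5.37 CPM in the other libraries, and without testis 2 the gene was called (2.44). The gene hspa2, whose mouse namesake is a testis Hsp70, was at 1.01, 1.34, 1.84 and 1.41 CPM and was not called (0.47 ± 0.61 SE).

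Heat shock factors, the transcription factors that switch on Hsp genes, were examined as a list of 5 genes with an inhibitor among them. In edgeR's test 2 were called higher in testis (40.0%, against 36.7% of all tested genes) and 3 were not called. None was called higher in ovary, also at an unadjusted p under 0.05 or by DESeq2. The 2 called genes passed the filter on low counts only through the testes, so their calls carry the limit given above. The gene hsf5, which zebrafish males need to complete spermatogenesis, had 6 and 5 counts in the ovaries and 5005 and 5291 counts in the testes (9.96 ± 0.32 SE, adjusted p = 9.25e-05). The gene hsf4 was called on few counts, 4 and 1 against 11 and 10 (2.16 ± 0.73 SE), and lost its call whichever of the 4 libraries was left out (1.57 to 3.20). The main heat-responsive factor hsf1 was at 41.0, 45.5, 54.5 and 68.4 CPM (0.51 ± 0.23 SE, adjusted p = 0.0952), and hsf2 was at 91.3, 83.1, 55.8 and 66.0 CPM (−0.52 ± 0.21 SE, adjusted p = 0.0732).

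The proteins that work with Hsp70 and Hsp90 went mostly one way where they were called. Ovary calls made up 28.5% of all tested genes and 56.7% of those with a mean log2 CPM of 5 or more. Testis calls made up 36.7% and 17.9% of these groups. The lists hold genes on both sides of that level, so none of these shares is matched to them. Of 17 Hsp70 co-chaperone genes, 10 were called higher in ovary (58.8%), 2 higher in testis (11.8%) and 5 not called. Among the 10 were hyou1 and sil1 of the ER and grpel1 of the mitochondrion. Besides hyou1, the largest ovary differences were those of the exchange factors bag4 (−3.39 ± 0.26 SE) and bag5 (−2.01 ± 0.28 SE). The testis calls were bag2 and bag3. With 1 and 1 counts in the ovaries and 32 and 23 in the testes (4.74 ± 0.77 SE), bag2 passed the filter only through the testes. The gene bag3 was at 2.38, 2.22, 9.58 and 10.3 CPM (2.11 ± 0.49 SE) and was not called without testis 2 (2.04). The Hsp90 list of 13 genes holds co-chaperones and also trap1, which is itself the mitochondrial Hsp90. Of these 13 genes, 7 were called higher in ovary (53.8%), trap1 among them, 1 higher in testis (7.69%) and 5 not called. They included cdc37l1, a relative of the kinase loader Cdc37 (−2.75 ± 0.23 SE), and unc45a (−1.66 ± 0.22 SE), and the testis call was the cyclophilin ppid (1.18 ± 0.23 SE). With library total scaling the ovary calls fell to 6 of the Hsp70 list and 3 of the Hsp90 list.

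The CCT complex was the family with the narrowest range. Its 9 genes had log2 fold changes from −0.65 to 0.04, with SEs from 0.21 to 0.56, and none was called by edgeR. In either direction 65.2% of all tested genes were called, and 74.6% of those with a mean log2 CPM of 5 or more. All CCT genes but the cct2 gene ENSDARG00000087206 lay above that level. At an unadjusted p under 0.05 there was 1, tcp1, which DESeq2 also called (−0.78, adjusted p = 0.0265), as did edgeR without testis 2 (−0.86, adjusted p = 0.0484). The gene tcp1 stood at 275, 231, 141 and 183 CPM (−0.65 ± 0.25 SE, adjusted p = 0.0624).

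The other subunits lay closer to each other in both sexes. Levels were 272, 200, 149 and 176 CPM for cct4, 371, 242, 196 and 232 CPM for cct3, and 291, 225, 162 and 213 CPM for cct5. In these 3 genes both ovaries were above both testes, as they were in cct6b (246, 200, 193 and 160 CPM), but in cct3 and cct5 ovary 2 was close to testis 2, and in cct6b to testis 1. The subunits cct7 (378, 261, 237 and 296 CPM) and cct8 (224, 148, 156 and 133 CPM) overlapped between the sexes. Ovary 1 was the highest library in all of them.

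A pair of genes carries the symbol cct2. The gene ENSDARG00000104674 was at 82.8, 69.7, 74.9 and 75.2 CPM (−0.02 ± 0.21 SE) and ENSDARG00000087206 at 6.83, 3.97, 4.40 and 6.71 CPM (0.04 ± 0.56 SE). Both overlapped between the sexes, and how reads were divided between them is uncertain.

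The direction of the CCT genes is set by the scaling. With library total scaling the median over the 9 genes turned from −0.36 to 0.40 (and was −0.71 without ovary 2 under TMM), the signs of all 8 genes that were negative under TMM turned positive, and the cct2 gene ENSDARG00000104674 was called higher in testis (0.73, adjusted p = 0.0181). Relative to the median of all genes the family was 0.81 lower with TMM and 0.79 lower with library total scaling, but 1.51 lower with no filter and only 0.014 lower with at least 10 counts in every library, where its own median was 0.053. In share of the library's counts, the 9 genes took 0.155% and 0.130% in the ovaries and 0.173% and 0.186% in the testes.

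**Figure D4:**
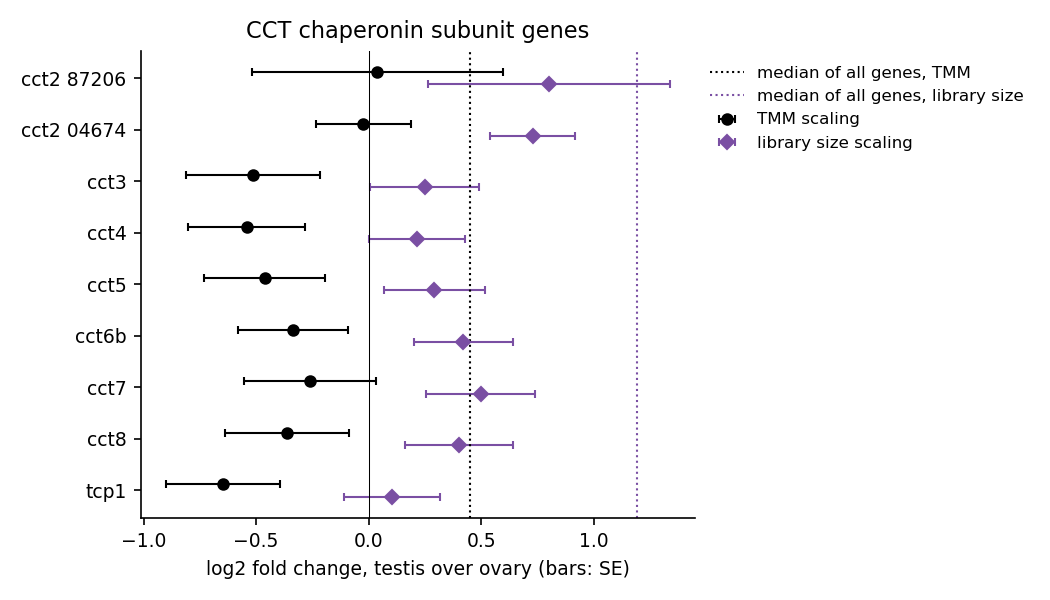
Log2 fold change (testis over ovary) of the 9 CCT genes with its SE, fitted from 2 ovary and 2 testis libraries with TMM scaling (circles) and with library total scaling (diamonds); the dotted lines are the medians of all tested genes under each scaling, 0.45 and 1.19. All points lie to the left of the median of their own scaling, and the change of scaling moves every gene to the right by a similar amount.

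Proteins that load or assist CCT were mostly not called either. Of 13 tested genes, 3 (23.1%) were called higher in ovary, against 28.5% of all tested genes. Only 1 (7.69%) was called higher in testis, against 36.7%, and 9 were not called. The 3 were prefoldin subunits, which carry new actin and tubulin to CCT: vbp1 (88.1, 98.4, 20.1 and 17.6 CPM, −2.31 ± 0.23 SE), pfdn2 (−1.78 ± 0.35 SE) and pfdn5 (−1.02 ± 0.22 SE). The remaining prefoldin genes pfdn1 (−0.20 ± 0.33 SE), pfdn4 (−0.49 ± 0.24 SE) and pfdn6 (0.24 ± 0.38 SE) were not called. The testis call was bbs10, a chaperonin-like protein that in mammals builds the BBSome, a carrier of ciliary membrane proteins. It was at 2.81 and 2.08 CPM in the ovaries against 17.9 and 38.0 CPM in the testes (3.51 ± 0.50 SE).

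DnaJ genes were the most numerous members and went both ways. Of 49 tested, 22 (44.9%) were called higher in ovary, against 28.5% of all tested genes and 56.7% of those with a mean log2 CPM of 5 or more. Another 12 (24.5%) were called higher in testis, against 36.7% and 17.9%, and 15 were not called. DnaJ genes lay on both sides of that level, so none of these backgrounds is matched to them. Among the 12, dnaja, dnajb4, dnajb5, dnajb13, dnajb14 and dnajc12 had passed the filter on low counts only through the testes, so this count carries the limit given above. The 6 DnaJA genes, which have the domain plan of the bacterial DnaJ, held 4 ovary calls (66.7%) and 1 testis call (16.7%). The 4 all had a mean log2 CPM above 5, and at that level 56.7% of all tested genes were called higher in ovary. In the cytosol dnaja1 stood at 57.2, 91.5, 14.3 and 13.0 CPM (−2.44 ± 0.30 SE), and the 2 genes named dnaja2 were also called higher in ovary (−2.04 ± 0.33 SE for ENSDARG00000104066 and −1.56 ± 0.29 SE for ENSDARG00000010745). With library total scaling ENSDARG00000010745 lost its call (−0.81). The testis call was the gene whose symbol is dnaja with no number. It was at 0.529 and 0.672 CPM in the ovaries against 16.7 and 14.9 CPM in the testes, 26.3-fold higher in testis (4.70 ± 0.52 SE, adjusted p = 0.000756).

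The largest difference of any member was that of dnajb13, which in mammals belongs to the radial spokes of the sperm tail. It had 2 and 1 counts in the ovaries and 1457 and 1507 counts in the testes (9.96 ± 0.35 SE, adjusted p = 8.06e-05). By the pooled counts, scaled by TMM, the ratio was 1080, with an exact interval of 369 to 5239 for counting error. The sperm lineage markers moved with it, and their part in the result was not tested.

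Among the other DnaJB genes, dnajb2 was at 8.36, 5.71, 43.2 and 26.4 CPM, higher in both testes (2.30 ± 0.39 SE). The gene dnajb5 had no counts in the ovaries and 23 and 36 in the testes, which makes it at least 9.45-fold higher in testis with 3 counts per ovary library as the floor. The gene dnajb4 was called on 16 and 3 counts against 45 and 39 (2.32 ± 0.79 SE, adjusted p = 0.0401). It was not called without ovary 2 (1.59) or without testis 1 (2.15), and its log2 fold change was 3.71 without ovary 1.

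Pairs of DnaJB copies named a and b differed in what passed the test. The gene dnajb6b, one of a pair that in mammals holds back protein aggregation, was at 95.7, 101, 23.4 and 25.5 CPM (−2.01 ± 0.21 SE), while dnajb6a was at 33.9, 23.8, 33.9 and 31.6 CPM, with no call (0.18 ± 0.28 SE). The gene dnajb1b, a main partner of Hsp70 after heat, was at 213, 398, 76.7 and 103 CPM (−1.76 ± 0.36 SE), while dnajb1a was at 29.2, 31.8, 28.3 and 25.1 CPM, with no call (−0.19 ± 0.25 SE). The difference between the copies of a pair was not tested. With library total scaling dnajb1b lost its call (−1.05) and dnajb6a was called higher in testis (0.95).

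DnaJC proteins share only the J domain that stimulates Hsp70, and their other parts set their tasks. Of 30 tested, 13 (43.3%) were called higher in ovary, against 28.5% of all tested genes and 56.7% of those with a mean log2 CPM of 5 or more. Another 6 (20.0%) were called higher in testis, against 36.7% and 17.9%, and 11 were not called. These genes also lay on both sides of that level, and no background is matched to them. Of the 6, dnajc12 had passed the filter on low counts only through the testes. The largest ovary differences were those of dnajc25, at 61.0, 59.9, 5.31 and 6.77 CPM (−3.32 ± 0.27 SE), and dnajc5ga, at 204, 236, 20.0 and 27.7 CPM (−3.20 ± 0.27 SE). The latter is a relative of the cysteine string protein dnajc5, which keeps exocytosis proteins folded on secretory vesicles. One gene named dnajc5 went with it (ENSDARG00000004836, 119, 86.2, 17.7 and 14.1 CPM, −2.69 ± 0.28 SE), and the other (ENSDARG00000042948, 7.62, 8.27, 4.13 and 4.53 CPM) was not called (−0.87 ± 0.47 SE). The copy dnajc5gb was at 19.4, 6.45, 12.9 and 16.9 CPM and was not called either.

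Auxilin, which strips clathrin from vesicles with the help of Hsp70, is encoded by dnajc6. It was at 40.2 and 44.1 CPM in the ovaries against 4.07 and 6.71 CPM in the testes (−2.97 ± 0.35 SE). The gene dnajc21, whose yeast relative acts in maturation of the large ribosomal subunit, was at 55.7, 57.4, 12.3 and 16.2 CPM (−1.99 ± 0.26 SE). A small ovary difference, that of dnajc14 (−0.66 ± 0.20 SE, adjusted p = 0.0292), was not called in any fit that left out 1 library (−0.74 to −0.59) and turned to 0.09 with library total scaling.

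Of the testis-high DnaJC genes, dnajc12 was at 1.01 and 0.403 CPM in the ovaries against 21.4 and 25.2 CPM in the testes. In humans its product assists the enzymes that hydroxylate aromatic amino acids. The log2 fold change was 5.01 ± 0.56 SE (adjusted p = 0.000798), 4.44 without ovary 2 and 5.83 without ovary 1. The genes dnajc4 (8.31, 8.20, 30.8 and 27.7 CPM, 1.82 ± 0.30 SE) and dnajc27, a small GTPase with a J domain (25.4, 16.4, 47.8 and 80.1 CPM, 1.61 ± 0.36 SE), were also called. The histone chaperone dnajc9 was at 33.9, 36.1, 53.6 and 60.1 CPM (0.70 ± 0.22 SE, adjusted p = 0.03), but was not called in any fit that left out 1 library (0.60 to 0.77).

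A pair of genes carries the symbol dnajc16, and they were called in opposite directions, like those of dnajc11. The gene ENSDARG00000060725 stood at 177, 119, 59.2 and 66.2 CPM (−1.24 ± 0.26 SE), and ENSDARG00000059699 at 2.12, 1.41, 7.28 and 13.5 CPM (2.55 ± 0.59 SE, adjusted p = 0.0105). The testis call was lost without testis 2 (2.01, adjusted p = 0.0632) and the ovary call with library total scaling (−0.48). In all, 9 symbols were shared by 18 members. Reads that fit both genes of such a pair could be lost or divided, and their sequences were not compared, so values of single copies are uncertain.

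**Figure D5:**
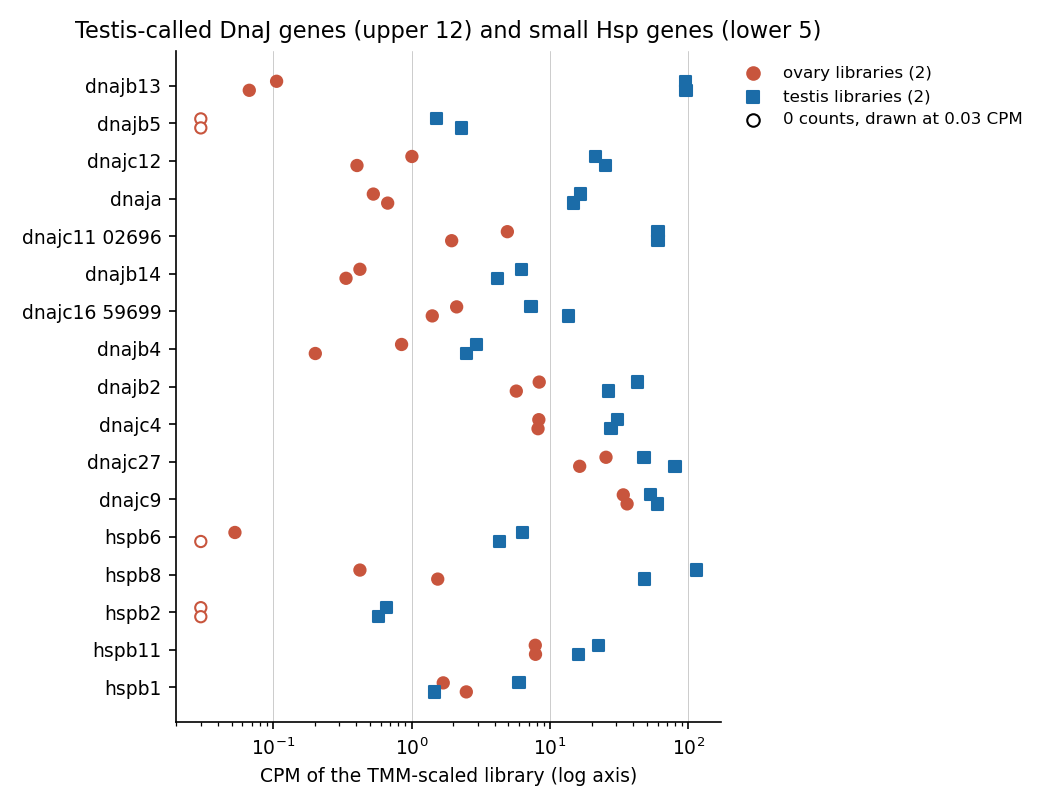
CPM in each library of the 12 DnaJ genes called higher in testis (upper rows) and the 5 tested small Hsp genes (lower rows), on a log axis; open symbols mark libraries with no counts, drawn at 0.03 CPM, and genes that share a symbol carry the final digits of their gene ID. Circles are the 2 ovary libraries and squares the 2 testis libraries. All genes but hspb1 have both squares to the right of both circles, with the widest gap in dnajb13.

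Small Hsp genes other than hspb11 had few counts in ovary. Of 10 genes placed in this family by symbol 5 were tested, and whether each is a small Hsp by sequence was not examined. Of the 5, 4 (80.0%) were called higher in testis, against 36.7% of all tested genes, and 1 was not called. All of the 4 but hspb11, so 3 of them, had passed the filter only through the testes. None was called higher in ovary by edgeR or DESeq2 or at an unadjusted p under 0.05. The gene hspb8 had 8 and 23 counts in the ovaries and 1744 and 757 in the testes, or 0.424 and 1.55 CPM against 114 and 48.4 CPM (6.39 ± 0.76 SE, adjusted p = 0.000986). Its log2 fold change was 5.65 without testis 1 and 7.49 without ovary 2, and it was called in both. In mammals HspB8 works with Bag3, whose gene was called higher in testis too, as given above.

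The gene hspb6, which in mammals is abundant in smooth and heart muscle, had 1 and 0 counts in the ovaries and 96 and 68 in the testes. The ratio of its scaled counts was 179, with an exact interval of 31.7 to 7122, and edgeR's adjusted p was 0.000944. Its fitted log2 fold change of 7.17 was 9.36 without ovary 1 and 6.39 without ovary 2. The muscle gene hspb2 had no counts in the ovaries and 10 and 9 in the testes, at least 3.05-fold higher in testis with 3 counts per ovary library as the floor. It lost its call without ovary 1 (adjusted p = 0.0832) and without ovary 2 (adjusted p = 0.0724). The gene hspb11 was at 7.83, 7.86, 22.5 and 16.2 CPM (1.30 ± 0.36 SE, adjusted p = 0.0208), a call that was lost without ovary 1 (1.31), ovary 2 (1.22) or testis 1 (1.03).

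Some muscle markers moved with the small Hsps. Of 7 smooth muscle symbols 3 were found, with 4 gene IDs. Of these IDs 3 (75.0%) were called higher in testis, against 36.7% of all tested genes. The call of acta2 lay at the threshold (adjusted p = 0.0497 in edgeR's test). The other tagln ID, ENSDARG00000045408, overlapped between the sexes and was not called. The sizes of 2 of the 3 called differences depended on single libraries. Without ovary 1 the log2 fold change of tagln (ENSDARG00000033466) was 2.32 instead of 2.88, and that of acta2 was 1.13 instead of 1.80. Without testis 1 these values were 2.03 and 1.30. Summed levels of the 4 IDs were 33.0 and 88.0 CPM in the ovaries against 266 and 212 CPM in the testes, a narrower gap than that of hspb8 or hspb6. The 7 skeletal muscle genes found added up to 3.60 and 2.62 CPM against 15.7 and 8.49 CPM. The gene hspb1, which encodes Hsp27, was at 1.69, 2.49, 5.97 and 1.47 CPM and was not called (0.83 ± 0.80 SE, and −0.50 without testis 1). Its highest library, testis 1, was also the one with 495 CPM of krt5. The part of these cell types in the levels of small Hsps was not tested.

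Of the 52 called members, 35 kept their call in every alternative in which they were tested, 21 higher in ovary and 14 higher in testis. Such a count was not made over all tested genes. Leaving out 1 library ended 13 of the calls in at least 1 of the 4 fits. These were the calls of both hspa4 genes, hspa13, hsp70.1, hspb2, hspb11, dnajb4, dnajc2, dnajc9, dnajc10, dnajc14 and 1 gene each of the dnajc11 and dnajc16 pairs.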

How the data were processed

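Gonad RNA of 4 adult AB zebrafish (2 ovaries, 2 testes) was sequenced. The deposited table holds raw read counts per Ensembl gene, as whole numbers, and its 4 columns match the samples by name. According to the methods and the submitters' processing notes, the authors aligned reads with Hisat2 2.0.5 to GRCz11, dropped duplicate reads (samtools 1.5) and assigned reads to the exons of genes, reverse-stranded, in HTSeq 0.9.1. Removal of duplicates would compress abundant genes, and whether it was applied to the deposited counts could not be settled here. Per the labels, ribosomal RNA was depleted, while the methods describe polyadenylated RNA for adults.

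Symbols were found for 29201 gene IDs. The families were set by symbol, and pathway and marker lists were written by hand. The members and lists were chosen with earlier results of these data known. Genes passing filterByExpr (21815) were fitted in edgeR 4.0.16 (R 4.3.3) with TMM scaling, no covariates and the quasi-likelihood test in its newer form, with Benjamini-Hochberg adjustment at 0.05, and the SE is the log2 fold change over the square root of F. Totals ran from 11554811 to 26137839 counts, where 3 counts are 0.159 to 0.202 CPM. Intervals (95%) cover counting error only. Replicates differed by more than sampling noise (chi-square per degree of freedom 56.7 in ovary and 31.5 in testis), and the biological coefficient of variation was 0.384. Alternatives were DESeq2 1.42.0 size factors and Wald test, library total scaling, 2 other filters, stricter thresholds, thinning, a replicate block, leaving out each library and edgeR's older test, which was added after the data were seen. The fit was tested on simulated data. Figures used matplotlib 3.10.9.

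Members named in the text are all tested Hsp90, Hsp60, Hsp10 and CCT genes, the 5 with the highest mean CPM, and, in every other family, up to 3 called genes in each direction with the largest change, no overlap between the sexes and a mean log2 CPM of at least 1. Members named beyond this rule were chosen after their values were seen. Sequences were not used here.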

Additional observations from a re-analysis of the deposited data

How the results depend on the processing

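There were 2 fish per sex, and the biological coefficient of variation was 0.384. A minimum fold change of 2 could not keep any call on a difference under 1 log2 unit, so their loss there was fixed in advance. Of these calls, those of both hspa4 genes, dnajc14 and the dnajc11 gene ENSDARG00000011196 were also lost with library total scaling. That of dnajc9 was also lost with DESeq2's Wald test. Larger differences were not safe from this: dnajc2 (−1.61), hsp70.1 (−2.16), dnajb4 (2.32) and hspb2 (6.33) were among those that also lost a call. With library total scaling 21 members were called higher in ovary (33 with TMM) and 25 higher in testis (19 with TMM), 12 calls were lost, 6 were new and 1 called member, dnajc14, changed sign. The 12 lost calls were all ovary calls. Over all tested genes, library total scaling likewise lowered ovary calls from 6217 to 3833 and raised testis calls from 8002 to 10411. A minimum fold change of 2 lost 13 calls, and at least 10 counts in every library lost 6, left 9 called members untested and gave 3 new. In the alternatives other than library total scaling that kept all 4 libraries, 13 to 19 members were called higher in testis and 23 to 36 higher in ovary. Over all tested genes these alternatives gave 4566 to 7848 testis calls and 4045 to 6672 ovary calls. No called member changed sign in them. Without 1 library there were 15 to 18 testis calls and 25 to 31 ovary calls. The replicate numbers do not pair the fish in the labels, and the deviations of same-numbered libraries had a correlation of −0.03. With a replicate block 18 members were called higher in testis and 31 higher in ovary. The other sign changes printed here were in genes that had no call. With library total scaling the log2 fold change was 0.73 for the cct2 gene ENSDARG00000104674, 0.25 for cct3, 0.21 for cct4, 0.29 for cct5, 0.42 for cct6b, 0.50 for cct7, 0.40 for cct8 and 0.10 for tcp1. With at least 10 counts in every library it was 0.39 for the cct2 gene ENSDARG00000104674, 0.081 for cct6b, 0.15 for cct7 and 0.053 for cct8, and thinning gave 0.074 for that cct2 gene. For the cct2 gene ENSDARG00000087206 it was −0.049 with DESeq2 size factors, −0.11 with DESeq2's Wald test and −0.018 with no filter. Leaving out 1 library gave −0.23 to 0.12 and −0.39 to 0.49 for these 2 cct2 genes, −0.59 to 0.036 for cct7 and −0.16 to 0.53 for hsp90aa1.1. The median of the small Hsps fell from 6.33 to 4.41 or lower in fits that tested more or fewer of them. The cause of the other changes was not tested.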
